A study of Mus musculus with 92 samples.

Results

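Hepatic fatty acid synthesis was followed through 10 genes in the livers of female mice on 3 diets at 2 ages. The genes were Srebf1 and Mlxipl, which encode transcription factors, the enzyme genes Acly, Acaca, Fasn, Elovl6, Scd1 and Me1, and the lipogenic genes Thrsp and Pnpla3. They were chosen by name, with earlier results of these data known. They are 10 of the 17275 genes with counts under every library of the deposited gene table. All 10 were among the 12617 genes that passed the filter on low counts. The mice were HET3, a genetically heterogeneous stock made by crossing several inbred strains, so each animal has its own genotype. Animals ate a Control, a Low Amino Acid or a Low Isoleucine diet, and snap frozen liver was taken after an overnight fast of 16 hours that all groups shared. Mice killed at 6 months had started their diet at 9 weeks of age and mice killed at 24 months at 6 months of age. The series description gives 13 weeks on diet, which does not match those ages, so time on diet is uncertain. Because both ages at diet start and at death differed, a difference between 24 and 6 months cannot be told apart from one in age at diet start or in time on diet. Poly(A) RNA was sequenced in 92 libraries of both sexes in 12 groups. The 46 female libraries used here fell into 6 groups: 8 Control, 8 Low Amino Acid and 7 Low Isoleucine livers at 6 months, and 8 Control, 7 Low Amino Acid and 8 Low Isoleucine livers at 24 months. One more 6-month Low Isoleucine library, replicate 3, was left out by the rule that defined the set. Male libraries enter only through the authors' deposited comparison table.

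SREBP1, the protein encoded by Srebf1, is made as a membrane-bound precursor, cut in the Golgi and imported into the nucleus, where it switches on genes of fatty acid and triglyceride synthesis. In liver its shorter form, SREBP-1c, is raised by insulin and feeding and lowered by fasting, and it works beside ChREBP, the sugar-responsive factor encoded by Mlxipl. Their target enzymes form a chain: ATP citrate lyase (Acly) makes cytosolic acetyl-CoA, acetyl-CoA carboxylase (Acaca) turns it into malonyl-CoA, fatty acid synthase (Fasn) builds palmitate, and Elovl6 and Scd1 elongate and desaturate it, with NADPH from malic enzyme (Me1). Gene-level counts do not separate the Srebf1 transcripts for SREBP-1a and SREBP-1c.

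Srebf1, Fasn and Acly were the members that fell together on Low Isoleucine at 24 months and whose windows upstream of a RefSeq start hold no annotated exon, so those windows are shown. The 3 genes lie on the minus strand of chromosome 11, and each sequence runs 5′ to 3′ on the gene's strand and ends at the base before the start (RefSeq, GRCm38.p6). Capitals mark matches on either strand to a CCAAT box (CCAAT or ATTGG) or a GC box (GGGCGG or CCGCCC). The upstream Srebf1 window is chr11:60222582-60222831, the middle Srebf1 window chr11:60220628-60220877, the downstream Srebf1 window chr11:60210472-60210721, the Fasn window chr11:120824548-120824797 and the Acly window chr11:100528001-100528250. RefSeq lists these 3 starts for Srebf1, and the bases just after the middle and downstream ones were not found in a GENCODE transcript of the gene.

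Srebf1 upstream start: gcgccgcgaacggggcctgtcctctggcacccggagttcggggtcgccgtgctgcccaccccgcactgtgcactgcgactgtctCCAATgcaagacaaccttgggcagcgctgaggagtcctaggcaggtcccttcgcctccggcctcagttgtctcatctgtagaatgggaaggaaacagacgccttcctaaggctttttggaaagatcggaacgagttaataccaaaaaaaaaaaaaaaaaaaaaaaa
Srebf1 middle start: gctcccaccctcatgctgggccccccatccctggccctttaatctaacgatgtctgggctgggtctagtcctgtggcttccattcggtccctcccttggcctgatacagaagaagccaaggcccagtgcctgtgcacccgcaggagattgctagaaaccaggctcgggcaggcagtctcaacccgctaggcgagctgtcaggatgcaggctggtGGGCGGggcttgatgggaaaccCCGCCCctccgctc
Srebf1 downstream start: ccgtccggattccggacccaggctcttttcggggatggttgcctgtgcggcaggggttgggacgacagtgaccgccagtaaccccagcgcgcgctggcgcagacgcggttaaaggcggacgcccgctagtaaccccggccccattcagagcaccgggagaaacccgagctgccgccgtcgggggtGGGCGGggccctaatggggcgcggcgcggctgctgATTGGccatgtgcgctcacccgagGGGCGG
Fasn: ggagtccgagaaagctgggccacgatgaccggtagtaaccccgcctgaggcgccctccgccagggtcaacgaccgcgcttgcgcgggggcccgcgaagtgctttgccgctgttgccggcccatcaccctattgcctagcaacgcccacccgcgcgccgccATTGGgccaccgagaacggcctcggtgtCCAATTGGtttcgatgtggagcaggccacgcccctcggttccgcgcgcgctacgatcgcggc
Acly: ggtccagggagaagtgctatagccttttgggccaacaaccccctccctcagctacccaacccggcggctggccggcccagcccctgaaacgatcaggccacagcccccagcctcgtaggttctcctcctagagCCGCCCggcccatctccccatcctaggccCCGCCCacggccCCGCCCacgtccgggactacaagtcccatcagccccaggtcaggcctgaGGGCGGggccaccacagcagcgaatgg

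The Fasn window held CCAAT letters 62 to 58 bases upstream and the reverse form at 90 to 86 and at 59 to 55 bases, the first and last of these overlapping each other. In the Acly window there were 4 GC boxes and no CCAAT box, and in the downstream Srebf1 window ATTGG lay 30 to 26 bases before the start with GC boxes at 65 to 60 and 6 to 1 bases. The middle Srebf1 window held GC boxes at 36 to 31 and 14 to 9 bases, and the upstream one a CCAAT box at 166 to 162 bases. RefSeq gave 13 windows for 9 of the 10 genes. CCAAT occurred in 7 of these 13 windows (33.8% of all 32851 windows of 250 bases), the GC box in 6 (32.7%), the E-box CACGTG in 1 (6.02%) and the sterol regulatory element written as TCACNCCAC in 1 (1.05%). Both of the last were in windows of Mlxipl. A match is a description of letters in a short window and does not show binding.

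Library totals over the genes used ranged from 7.82 M to 27.6 M estimated reads (M, 1000000), with a median of 22.4 M, and the shallowest was 24-month Low Isoleucine replicate 5. The hepatocyte gene Alb had the highest level of its marker list in each of the 6 groups. Adipose tissue also makes fatty acids. Of its listed genes, Adipoq, Plin1, Lep and Retn were near 0, and Nrg4, Lipe and Adrb3 were not. Adipoq was at most 1.68 CPM (counts per 1000000 after TMM scaling) and at 0 in 11 of 46 libraries. The highest levels were 0.682 CPM for Plin1, 0.262 CPM for Lep and 0.122 CPM for Retn. Of the 10 listed adipocyte genes, 8 were among the 17275 genes used, and Cfd and Fabp4 were not, so their levels are not known here. The group medians of the sum of the 8 ran from 39.1 to 62.8 CPM. The highest of the 8 were Nrg4 and Lipe, which liver also makes. Adrb3 ranged from 2.62 to 18.3 CPM (median 8.22) and Slc2a4 from 0.0391 to 0.922 CPM, and neither was at 0 in any library. The part of adipose tissue in these livers was not tested. In bulk liver, fewer cells of a type and less RNA per cell cannot be told apart. Each library carries its own code in the labels, but nothing else says that each is a separate animal, so p-values measure the spread between these samples. Within a group some codes share a number and differ only in a letter, as most do in the 6-month Low Isoleucine group. The labels do not say what the number stands for. All tests of the counts treated the 46 libraries as independent. All values are in CPM over libraries, and every adjusted p for females is from edgeR's quasi-likelihood test with Benjamini-Hochberg adjustment over the 12617 genes, called when under 0.05.

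On Low Isoleucine at 24 months, 4 of the 10 genes fell against Control, namely Srebf1, Fasn, Acly and Thrsp, and none rose. Over all genes tested, 6.48% passed in this comparison in either direction. The median log2 difference of the 10 genes was -0.44, with 8 below 0, and that of all genes was -0.024. At 6 months none of the 10 passed in edgeR (0.0238% of all genes did), 4 of the 10 and 1271 of the 12617 had an unadjusted p under 0.05, and DESeq2 called 38 genes, Srebf1 among them. Again 8 were below 0 and the median was -0.25, against -0.0069 for all genes. The change in the Low Isoleucine difference with age was called for none of the 10 or of all 12617 genes (0.0%), and 1072 of all genes and 1 of the 10 had an unadjusted p under 0.05 for it. DESeq2 called 25 genes for that change.

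**Figure D1:**
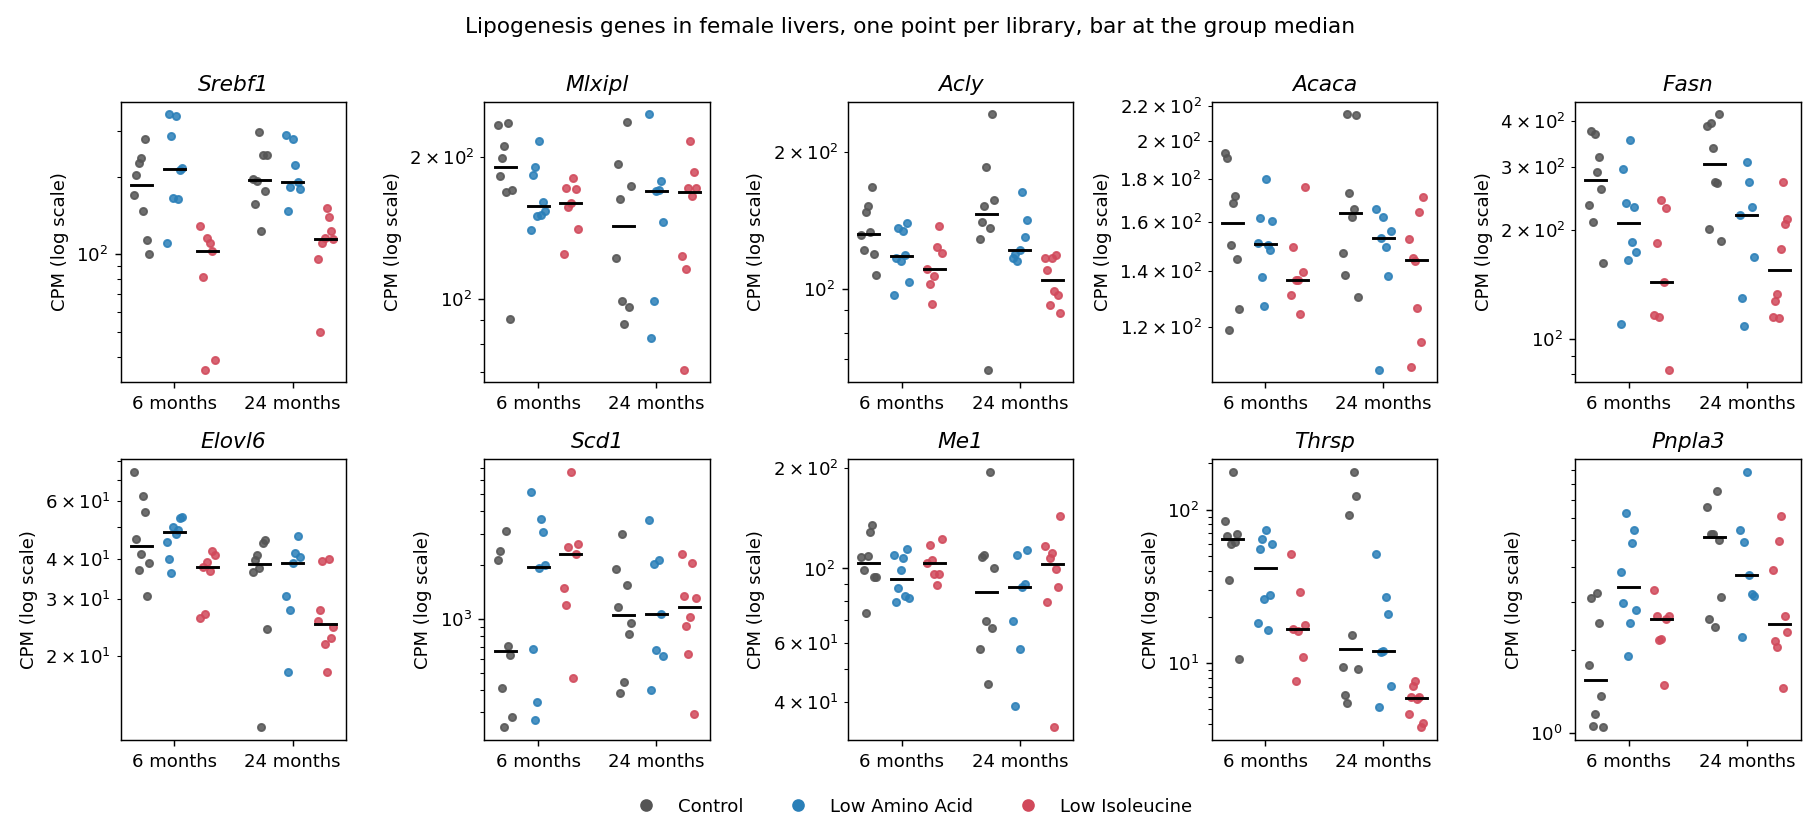
CPM on a log axis in each of the 46 female libraries for the 10 genes, by age and diet, with a bar at each group median. Low Isoleucine livers lie low for Srebf1 at both ages (highest 129 CPM at 6 months and 151 CPM at 24 months), Thrsp in the 24-month Control livers splits into 3 high and 5 low libraries, and Scd1 spreads widely in every group.

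Srebf1 was at 124 CPM in the lowest, 194 in the median and 299 in the highest 24-month Control liver. In the 24-month Low Isoleucine livers it was at 50.2, 115 and 151 CPM. Of the 8 Low Isoleucine livers, 6 lay below the lowest Control liver and all 8 below the Control median, though the groups overlapped. The log2 difference was -0.86 (SE 0.247, adjusted p = 0.0289). It was not called when 24-month Control replicate 4 or Low Isoleucine replicate 1 or 2 was left out, where its adjusted p reached at most 0.0586, when only the compared groups were fitted (adjusted p = 0.0655), or in limma voom with quality weights (adjusted p = 0.0850).

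At 6 months, Srebf1 was at 101, 186 and 281 CPM in the lowest, median and highest Control liver, and at 35.8, 103 and 129 CPM in Low Isoleucine. All 7 Low Isoleucine livers were below the Control median and 3 below the lowest Control liver. The log2 difference of -1.07 (SE 0.259) had an adjusted p of 0.110 in edgeR, 0.0159 in DESeq2 and 0.0383 in limma voom with quality weights. Between ages the Low Isoleucine difference moved by 0.22 (SE 0.354, adjusted p = 0.921), so no change with age was detectable.

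The restricted diets differed in Srebf1 at 6 months, with the lower levels on Low Isoleucine, and at 24 months it lay lower there without passing. In Low Amino Acid livers it was at 111, 214 and 349 CPM at 6 months (lowest, median and highest) and at 147, 191 and 289 CPM at 24 months. Against Control the log2 differences were 0.32 (SE 0.246, adjusted p = 0.738) and 0.065 (SE 0.254, adjusted p = 0.919). Set directly against Low Amino Acid, Low Isoleucine gave -1.39 at 6 months (SE 0.262, adjusted p = 0.0204), and Srebf1 was 1 of only 2 genes called there (0.0159%). Of the 7 Low Isoleucine livers, 5 lay below the lowest Low Amino Acid liver. Leaving out any one of 6 libraries ended that call (6-month Low Amino Acid replicates 2, 3 and 5 and Low Isoleucine replicates 2, 4 and 8; highest adjusted p 0.113). At 24 months 7 of 8 Low Isoleucine livers lay below the lowest Low Amino Acid liver, and the log2 difference of -0.92 (SE 0.254) had an adjusted p of 0.0552, with 1.25% of all genes called. Over 8 alternatives that p ran from 0.0204 in DESeq2 to 0.135 with only the libraries taken to be in the authors' female table. Of the 8, 4 called it.

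Ordered by mean, Srebf1 was at 231 CPM ± 87.4 (SD, n = 8) on Low Amino Acid at 6 months, 213 ± 53.4 (n = 7) on Low Amino Acid at 24 months, 203 ± 55.4 (n = 8) and 184.5 ± 62.9 (n = 8) on Control at 24 and 6 months, 113 ± 30.4 (n = 8) on Low Isoleucine at 24 months and 87.7 ± 37.3 (n = 7) on Low Isoleucine at 6 months. Neighbours in that order differed by less than 1 SD except at the step from Control at 6 months to Low Isoleucine at 24 months. The excluded 6-month Low Isoleucine library had 116 CPM, inside the range of the other 7.

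Mlxipl, the ChREBP gene, showed no called diet difference at either age. On Low Isoleucine it was at 125, 160 and 181 CPM at 6 months (lowest, median and highest), against 90.5, 191 and 237 CPM in Control. At 24 months the medians were 169 CPM on Low Isoleucine and 143 CPM on Control. The log2 differences were -0.24 (SE 0.210, adjusted p = 0.780) and 0.058 (SE 0.202, adjusted p = 0.905). In the excluded 6-month Low Isoleucine library Mlxipl was at 300.1 CPM, above all 7 libraries used.

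Acly, the entry step from citrate, fell on Low Isoleucine at 24 months. It was at 66.3, 147 and 243 CPM in the lowest, median and highest Control liver and at 88.5, 104 and 119 CPM in Low Isoleucine. Control spread widely around the narrow Low Isoleucine range, and all 8 Low Isoleucine livers were below the Control median. The log2 difference was -0.53 (SE 0.135, adjusted p = 0.0133), between -0.64 and -0.40 with any 1 of the 46 libraries left out, but not called with the compared groups alone (adjusted p = 0.163). Against Low Amino Acid it was -0.31 (SE 0.139, adjusted p = 0.260), and at 6 months against Control -0.25 (SE 0.140, adjusted p = 0.570).

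Acaca, the carboxylase that commits acetyl-CoA to fatty acids, had no called difference between diets. At 24 months it was at 130, 164 and 215 CPM in Control and at 108, 144 and 172 CPM on Low Isoleucine, with a log2 difference of -0.26 (SE 0.111, adjusted p = 0.152). At 6 months the difference was -0.15 (SE 0.115, adjusted p = 0.719). Its groups overlapped in every diet comparison, as did those of every other member, the called ones included.

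Fasn, the palmitate-building enzyme, was lower on Low Isoleucine by nearly the same amount at both ages. At 24 months it was at 186, 305 and 418 CPM in the lowest, median and highest Control liver and at 115, 155 and 272 CPM on Low Isoleucine. Of the 8 Low Isoleucine livers, 5 were below the lowest Control liver. The log2 difference was -0.86 (SE 0.239, adjusted p = 0.0229), which was not called without Low Isoleucine replicate 1 or 4 (highest adjusted p 0.0536), with the compared groups alone (0.0787) or in voom (0.0957). At 6 months Fasn was at 163, 275 and 376 CPM in Control and 82.5, 144 and 243 CPM on Low Isoleucine, a log2 difference of -0.80 (SE 0.248) that did not pass (adjusted p = 0.210).

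Unlike Srebf1, Fasn on Low Amino Acid lay between the other diets by mean. At 24 months it was at 109, 220 and 308 CPM (lowest, median and highest), with a log2 difference of -0.58 against Control (SE 0.247, adjusted p = 0.224) and of -0.27 between Low Isoleucine and Low Amino Acid (SE 0.245, adjusted p = 0.632). In the 24-month Low Amino Acid comparison with Control 0.745% of all genes passed and none of the 10 (2 of the 10 and 2137 of the 12617 had an unadjusted p under 0.05, and DESeq2 called 297 genes and no member), while at 6 months no gene passed (0.0%; 1023 at an unadjusted p under 0.05, and 8 in DESeq2).

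**Figure D2:**
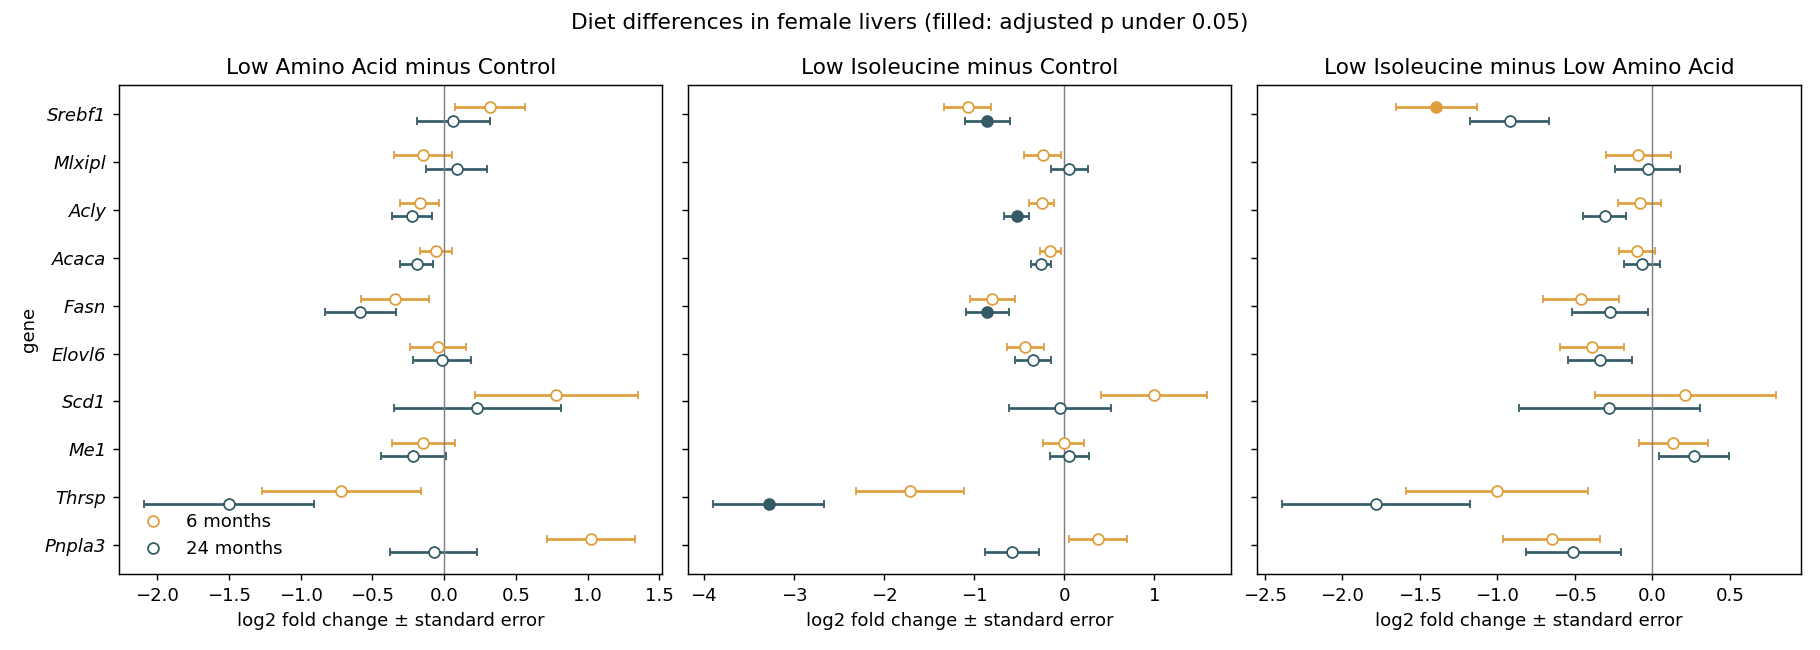
Log2 fold change with its standard error for the 10 genes in female livers, at 6 and 24 months, for Low Amino Acid minus Control, Low Isoleucine minus Control and Low Isoleucine minus Low Amino Acid. Filled points passed an adjusted p of 0.05: Srebf1, Fasn, Acly and Thrsp for Low Isoleucine against Control at 24 months, and Srebf1 for Low Isoleucine against Low Amino Acid at 6 months.

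Elovl6, which lengthens palmitate to stearate, had lower means on Low Isoleucine without passing. At 6 months it was at 30.7, 43.6 and 73.9 CPM in Control and 26.3, 37.6 and 42.3 CPM on Low Isoleucine, a log2 difference of -0.43 (SE 0.205, adjusted p = 0.471). At 24 months it was at 12.1, 38.5 and 45.5 CPM in Control and 17.8, 25.2 and 40.0 CPM on Low Isoleucine, with a difference of -0.35 (SE 0.198, adjusted p = 0.293).

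Scd1, the stearoyl-CoA desaturase, was the least repeatable of the enzymes. Control livers at 6 months ran from 248 to 3092 CPM around a median of 663, and 6-month Low Isoleucine livers from 467 to 6628 CPM around 2293. The log2 difference of 0.99 had an SE of 0.585 (adjusted p = 0.611), so a change of that size was not detectable at this spread. At 24 months the medians were 1056 CPM on Control and 1167 CPM on Low Isoleucine, a difference of -0.047 (SE 0.564, adjusted p = 0.972). Me1, the malic enzyme that supplies NADPH, had log2 differences of -0.0087 (SE 0.225) and 0.054 (SE 0.217) on Low Isoleucine at 6 and 24 months. Its 24-month Low Isoleucine livers ranged from 33.5 to 144 CPM around a median of 103.

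Thrsp, a nuclear-cytoplasmic protein tied to lipogenesis and an early responder to feeding and thyroid hormone, gave the largest difference of the 10 genes at 24 months, and 3 Control livers stood far above the others. Control replicates 4, 6 and 7 were at 92.5, 176 and 122 CPM, and the other 5 Control livers were at 5.49 to 15.2 CPM. Low Isoleucine livers lay between 3.80 and 7.61 CPM, all 8 below the Control median of 12.3 CPM and 3 below the lowest Control liver. The log2 difference was -3.28 (SE 0.619, adjusted p = 0.00109). With quality weights in voom it was -1.79 and did not pass (adjusted p = 0.181), nor did it with the compared groups alone (adjusted p = 0.0585). Of the 3 high Control libraries, replicate 4 had the highest summed neutrophil markers (844 CPM) and replicate 7 the highest summed Kupffer cell markers (2992 CPM) and B and T cell markers (193 CPM) of the 24-month Control group, and the part of these cells in the Thrsp result was not tested.

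At 6 months Thrsp was at 10.6, 64.1 and 176 CPM in the lowest, median and highest Control liver, at 16.5, 41.5 and 73.9 CPM on Low Amino Acid and at 7.67, 16.5 and 51.6 CPM on Low Isoleucine. The Low Isoleucine median was the lowest of the diets, but the log2 difference from Control of -1.72 (SE 0.600) did not pass (adjusted p = 0.284). At 24 months Low Amino Acid livers ranged from 5.18 to 51.1 CPM, with a log2 difference from Control of -1.50 (SE 0.595, adjusted p = 0.194), which was -0.12 in voom and -1.82 without 24-month Control replicates 1 and 5.

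Pnpla3, a lipid droplet protein that SREBP1 is known to switch on, was at low levels and showed a different pattern. At 6 months it was at 1.05, 1.57 and 3.23 CPM in Control (lowest, median and highest), at 1.91, 3.39 and 6.30 CPM on Low Amino Acid and at 1.49, 2.60 and 3.29 CPM on Low Isoleucine. Of the 8 Low Amino Acid livers, 4 lay above the highest Control liver, and none lay below the Control median. The log2 difference of 1.02 (SE 0.305) had an adjusted p of 0.365 in edgeR and was called in 1 of 8 alternatives, voom with quality weights (1.27, adjusted p = 0.0326). At 24 months the Low Amino Acid difference was -0.073 (SE 0.303, adjusted p = 0.925). The change of that difference between ages, -1.10 (SE 0.431), had an adjusted p of 0.482, and for this contrast no gene was called (0.0%; 1298 at an unadjusted p under 0.05, 1 of the 10 among them).

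Between ages, Pnpla3 was the gene of the 10 that rose in Control livers, where 28.0% of all genes changed. It went from a median of 1.57 CPM at 6 months to 5.14 CPM at 24 months, where the livers ranged from 2.42 to 7.52 CPM. The log2 difference was 1.33 (SE 0.306, adjusted p = 0.00151) and stayed between 1.20 and 1.47 with any 1 library left out. In Low Amino Acid livers it was 0.23 (SE 0.304, adjusted p = 0.783; 1.61% of genes called and none of the 10) and in Low Isoleucine livers 0.37 (SE 0.314, adjusted p = 0.481). Thrsp was the member that fell with age on Low Isoleucine, from a median of 16.5 to 5.89 CPM, in a comparison that called 7.34% of genes, and 5 of 8 alternatives called it (highest adjusted p 0.151). Its log2 difference was -1.93 (SE 0.609, adjusted p = 0.0431), and the call ended in 10 of the 46 fits with 1 library left out, each a Low Isoleucine library (6-month replicates 1, 2, 6 and 8 and 24-month replicates 1, 2, 5, 6, 7 and 8). Srebf1 and Fasn did not pass between ages in any diet group, with log2 differences between -0.12 and 0.36.

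Within groups the genes did not all move with Srebf1. After each group's mean was taken off, the log2 CPM of Srebf1 correlated over the 46 livers with that of Fasn (Pearson r = 0.60, permutation p = 5e-05; Spearman rho = 0.57, permutation p = 0.00014), Mlxipl (r = 0.54, p = 3e-05; rho = 0.51, p = 0.00014), Thrsp (r = 0.42, p = 0.00194; rho = 0.46, p = 0.00174) and Acly (r = 0.38, p = 0.00455; rho = 0.38, p = 0.01384). Labels were permuted within groups 100000 times, 9 such relations were tested, and the p for r of these 4, adjusted over the 9 by Benjamini-Hochberg, ran from 0.000225 to 0.0102. The other 5 did not pass, with r of 0.24 for Pnpla3, 0.17 for Acaca, 0.15 for Elovl6, -0.011 for Me1 and -0.058 for Scd1. Without the 2 livers farthest from the Srebf1 median, r was 0.60 for Fasn, 0.51 for Mlxipl, 0.43 for Thrsp and 0.39 for Acly. Of the 45 pairs among the 10 genes, 42 had a within-group r above 0, with a median of 0.27. The share over pairs of all genes was not computed, so this count does not set the 10 genes apart. Livers share depth and RNA handling within a library. By within-group r with Srebf1, Fasn ranked 105, Mlxipl 238, Thrsp 832 and Acly 1157 among 12616 genes. Many genes outside the set thus followed Srebf1 more closely than Thrsp or Acly did.

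**Figure D3:**
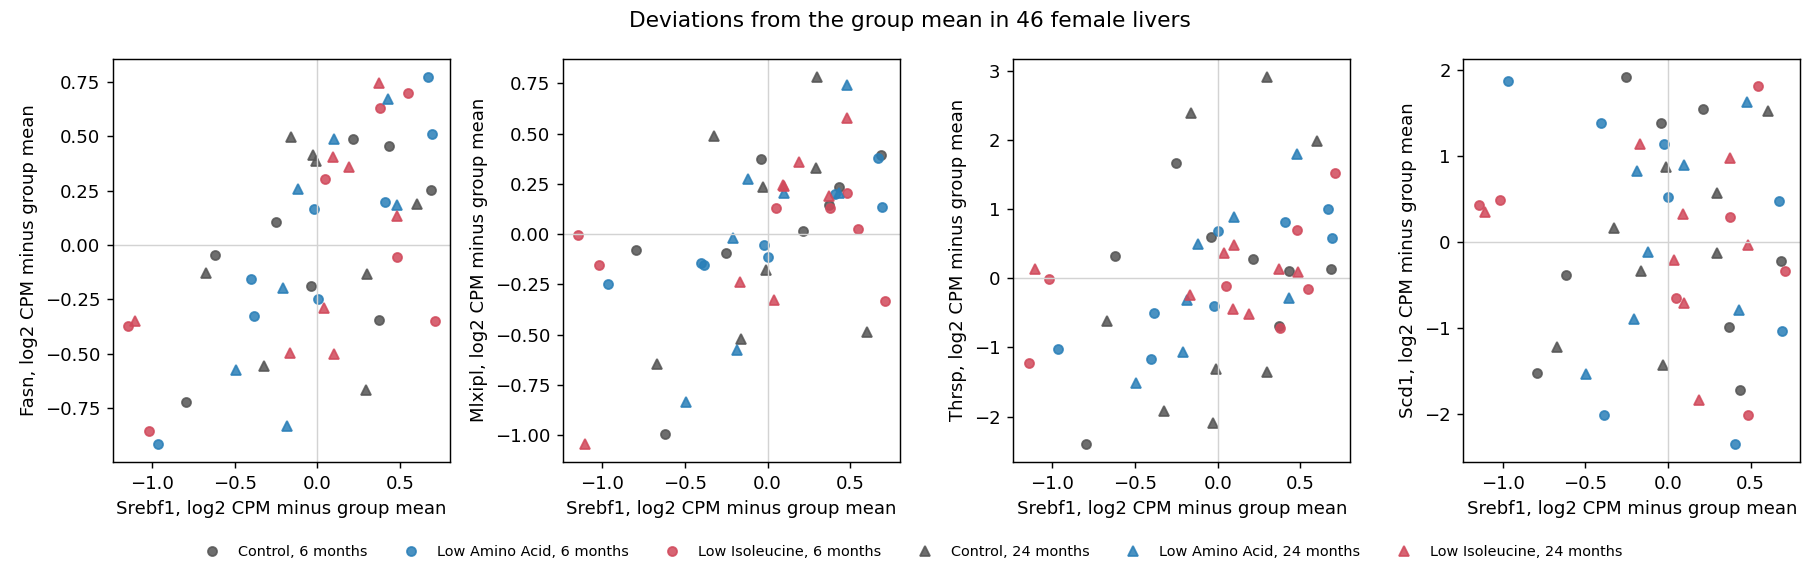
Log2 CPM minus the group mean in 46 female livers, with Srebf1 on the x axis and Fasn, Mlxipl, Thrsp or Scd1 on the y axis, by diet (colour) and age (shape). Fasn, Mlxipl and Thrsp rise with Srebf1 (r of 0.60, 0.54 and 0.42), and Scd1 does not (r = -0.058).

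Over all 46 livers, with group differences left in, the 8 genes outside the set most like Srebf1 by Pearson r were Mid1ip1 (0.73), Slc25a23 (0.71), Nlrx1 (0.71), Adra1b (0.70), Tmem150a (0.69), Col27a1 (0.69), Eml2 (0.68) and Rabggta (0.67). Mid1ip1 is the paralog of Thrsp and an activator of acetyl-CoA carboxylase. Its mean was 17.0 CPM in 24-month Control and 9.43 CPM in 24-month Low Isoleucine livers, a log2 difference of -0.86 (SE 0.242, adjusted p = 0.0252). Fasn ranked 16th by the same measure, with r = 0.65.

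The neighbouring pathways were read from lists chosen with earlier results of these data known. On Low Isoleucine against Control at 24 months, 3.79% of all genes fell, 2.69% rose and the median of all genes was -0.024. Among 22 genes of SREBP2 and cholesterol synthesis, 6 fell, none rose, and the median log2 difference was -0.75. Fdps, which makes farnesyl diphosphate, fell from a mean of 90.2 to 30.6 CPM (log2 -1.56, adjusted p = 0.0368), and Lss, which makes lanosterol, from 68.6 to 40.8 CPM (-0.75, adjusted p = 0.0252). On the Low Amino Acid diet at 24 months 21 of the same 22 genes were below 0, and 1 fell, where 0.293% of all genes did: Tm7sf2, a sterol reductase (-0.81, adjusted p = 0.0455). At 6 months 20 of 22 were below 0 on Low Isoleucine and all 22 on Low Amino Acid, and none passed (0.0238% and 0.0% of all genes did). The median of all genes was -0.0069 and 0.00056 there, and -0.033 on Low Amino Acid at 24 months. The signs were not tested as a set, and these genes may vary together between livers.

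Of 32 genes for SREBP processing and SREBP1 regulators, 2 fell and 1 rose on Low Isoleucine at 24 months, a share near the 6.48% called over all genes. Bhlhe40, a transcriptional repressor with circadian and feeding responses, fell from 108 to 47.3 CPM (log2 -1.19, SE 0.206, adjusted p = 0.000635) and also differed from Low Amino Acid (-0.98, adjusted p = 0.0123). Irs1, an adaptor of the insulin receptor, rose from 80.6 to 133 CPM (0.72, adjusted p = 0.0255), and Akt2, the insulin-signalling kinase, fell (-0.27, adjusted p = 0.0477). None of 14 ChREBP target and sugar use genes, 11 LXR targets or 12 fasting and FOXO1 targets passed. In other fatty acid synthesis, elongation and desaturation 1 of 25 passed (Mid1ip1), in NADPH supply 1 of 12 (Taldo1, -0.40, adjusted p = 0.0240), in triglyceride assembly 1 of 13 (Agpat3, 0.36, adjusted p = 0.0413) and in liver lipid storage 1 of 14 (Fitm1, -1.60, adjusted p = 0.0433). These counts too are near the 6.48% called over all genes.

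Inflammation-related genes changed in the same comparison, in which 3.79% of all genes fell. Of 17 acute phase genes 12 fell. The summed level of all 17 was 52626 CPM in the median 24-month Control liver (24963 to 197765) and 29092 CPM on Low Isoleucine (28015 to 38180). Of 13 neutrophil markers 3 fell. The median sum of all 13 was 63.1 CPM (9.60 to 844) on Control and 14.1 CPM (3.95 to 203) on Low Isoleucine. No neutrophil marker was at 0 in all libraries of either group. None of 11 Kupffer cell and macrophage markers passed, with median sums of 825 and 566 CPM. The 24-month Control replicates 1 and 5 had been singled out for high acute phase genes. Without them the same 4 members were called, with log2 differences of -0.96 for Srebf1, -0.83 for Fasn, -0.69 for Acly and -3.61 for Thrsp.

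With age in Control livers, changes were also counted in the neighbouring lists, beside 11.4% of all genes that fell and 16.7% that rose. In other fatty acid synthesis, elongation and desaturation 8 of 25 fell and 1 rose, with Elovl2, which elongates polyunsaturated fatty acids, at -0.67 (adjusted p = 0.00383). In triglyceride assembly 6 of 13 fell and none rose, among them Gpam, the first acyltransferase (-0.62, adjusted p = 0.000455), and Lpin2, a phosphatidate phosphatase (-0.96, adjusted p = 0.000467). In NADPH supply 4 of 12 rose and 1 fell, with Pgd at 0.74 (adjusted p = 0.000324) and G6pdx at 0.90 (adjusted p = 0.00426). In the same comparison 15 of 17 acute phase genes and 13 of 13 neutrophil markers rose, and the part of inflammatory cells in these changes was not tested.

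In males, the values come from the authors' deposited table, since the male count columns do not line up with the gene names. The sign is read as diet minus Control and old minus young, as in their female table. Its diet values followed differences in mean log2 CPM between groups (r of 0.877 to 0.914 across genes). Those differences were taken without TMM scaling and with the excluded library. No such r was computed between ages. There Pnpla3 in Control females was at 1.43 in the authors' deposited female table and at 1.33 in the edgeR fit. In young males on Low Isoleucine, the authors' deposited table gave Srebf1 at -1.57 (adjusted p = 0.000579) and Acaca at 0.47 (adjusted p = 0.00644), with 21.1% of genes called. Fasn was at -0.26 (adjusted p = 0.592) and Thrsp at -1.28 (adjusted p = 0.181) there, neither called. In young males on Low Amino Acid, the authors' deposited table called Acaca (0.48, adjusted p = 0.00229) and no other member, with 16.3% of genes called, and gave Srebf1 as -0.15. In old males, the authors' deposited table called none of the 10 on either diet (of all genes, 0.0563% for Low Amino Acid and 0.0676% for Low Isoleucine), with Srebf1 at -0.45 on Low Isoleucine. Between old and young Control males, the authors' deposited table called 4 members and 20.0% of genes: Mlxipl at -0.98 (adjusted p = 0.0024), Elovl6 at -0.90 (adjusted p = 0.00699), Pnpla3 at 1.07 (adjusted p = 0.0299) and Acaca at 0.30 (adjusted p = 0.0446). Pnpla3 was thus higher at 24 months in Control livers of both sexes. Differences between the sexes were not tested, because the tables were fitted separately.

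**Figure D4:**
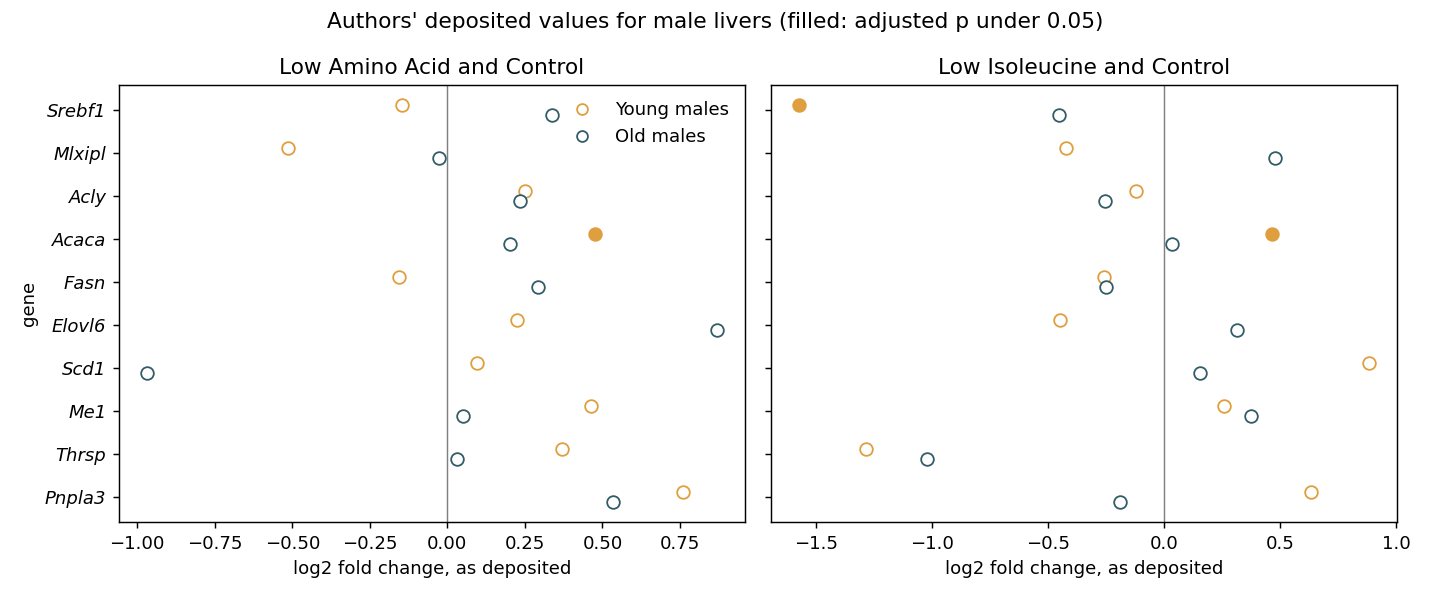
Log2 fold changes of the 10 genes in male livers as deposited by the authors, for Low Amino Acid and Low Isoleucine against Control in young and old males, without error bars because none were used. Filled points have a deposited adjusted p under 0.05: Srebf1 (-1.57) and Acaca (0.47) in young males on Low Isoleucine, and Acaca (0.48) in young males on Low Amino Acid.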

How the data were processed

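Liver poly(A) RNA was sequenced from 92 samples, and the authors deposited 1 table of estimated counts per gene (RSEM-type, not normalized, per the file headers) and 2 comparison tables. The deposited comparison tables hold log2 fold changes, p-values with Benjamini-Hochberg adjusted p-values, and an F statistic, a score over all comparisons that was not used. The submitters' processing notes name GRCm38.p5, edgeR, limma and R 3.4.3, with the aligner not given in the sources used here. Only the 17275 of 51912 lines filled under every column were used. The other 34637 lines hold 47 cells, and the 45 male columns were not used because they do not line up with the genes. Their fold changes did not follow the deposited male table (r of -0.009 to 0.015 across genes).

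Estimated counts were rounded and fitted in 1 model of 46 libraries and 6 groups with edgeR 4.0.16 (R 4.3.3): filterByExpr, TMM scaling, glmQLFit and glmQLFTest, adjusted over 12617 genes. The SE is the log2 fold change divided by the root of F. The closest library pair differed by a chi-square of 21.6 per gene, so no library was counted as a copy. Precision depends on the spread of each gene between livers, on the 40 residual degrees of freedom and on the totals of 7.82 to 27.6 M reads. The fit was tested on simulated counts with known changes in the 6-month Low Isoleucine group. Counts were drawn independently for each gene, without differences between livers that many genes share. Alternatives were DESeq2 1.42.0, limma 3.58.1 voom with quality weights, RLE factors, no filter, the compared groups alone, other choices of libraries and each library left out. The labels give no replicate numbers shared between groups. Members and lists were chosen with earlier results of these data known. The genes named are the 10 members, up to 4 called genes per list and comparison with the smallest p, and the 8 genes most like Srebf1, and some called genes of the lists are not reported here. Symbols come from the comparison tables, and gene lists hold 280 entries.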

Additional observations from a re-analysis of the deposited data

Results flagged for a closer look

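In 60 groups of libraries, 10 genes in 6 groups, 4 had 1 library far from the others by Dixon's gap at the 95% level. The gap was taken on log2 CPM, not on the CPM printed here. Chance alone gives such a flag in about 1 of 20 groups. Srebf1 was lowest in 24-month Low Isoleucine replicate 2 (50.2 CPM), with the next liver at 95.9 CPM, and without this library its difference from Control was -0.75 and no longer called. Acaca was lowest in 24-month Low Amino Acid replicate 2 (107 CPM). Me1 was lowest in 24-month Low Isoleucine replicate 5 (33.5 CPM), which is also the shallowest library and the one with the highest neutrophil marker sum of its group (203 CPM). Mlxipl was lowest in 6-month Control replicate 7 (90.5 CPM). No change of a diet difference between ages was called for any of the 10 genes.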

How the results depend on the processing

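No direction of a called difference turned under any alternative. For Low Isoleucine against Control at 24 months, 4 genes of the 10 were called under DESeq2, RLE, no filter and each other choice of libraries, but 0 with the compared groups alone (40 genes in all, against 818) and 1, Acly, in voom, and 2 to 4 with 1 library left out (2 without Low Isoleucine replicate 1). At 6 months 0 became 1, Srebf1, in DESeq2 and in voom (38 and 72 genes in all, against 3). For Low Amino Acid at 6 months voom called 1, Pnpla3, with 52 genes in all. For Low Isoleucine against Low Amino Acid, the call of Srebf1 at 6 months gave 0 to 1 with 1 library left out. At 24 months 1 gene, Srebf1, was called in DESeq2, with the compared groups alone, without 24-month Control replicates 1 and 5, and in voom, and 0 to 1 with 1 library left out. Between ages, Control livers gave 2 without those replicates, Acly at 0.32 (adjusted p = 0.0400) beside Pnpla3, and 1 to 2 with 1 library left out, Elovl6 at -0.53 joining without 6-month Control replicate 7. Low Isoleucine livers gave 0 without the filter, in voom, and with only the libraries taken to be in the authors' female table. They gave 0 to 1 with 1 library left out. The cause was not tested.

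Counts over all genes moved more. The authors' libraries are here those left without 24-month Low Amino Acid replicates 2 and 4 and Low Isoleucine replicates 2 and 5. They were taken to be those of the authors' female table, whose fold changes and p-values name no library. Low Amino Acid against Control at 24 months gave 94, but 4 with the compared groups alone, 8 without 24-month Control replicates 1 and 5, 297 in DESeq2 and 1473 with the authors' libraries, and 15 to 265 with 1 library left out. For Low Isoleucine at 24 months the authors' libraries gave 1771. Low Isoleucine against Low Amino Acid gave 2 at 6 months, against 200 with the compared groups alone, 130 in voom and 18 in DESeq2, and 158 at 24 months, against 75 with the compared groups alone and 832 in voom. Between ages, the compared groups alone gave 2140 in Control (3538), 330 in Low Amino Acid (203) and 374 in Low Isoleucine livers (926), and the authors' libraries 26 and 119 in the last 2. The authors' libraries also gave 521 for the change of the Low Amino Acid difference with age, against 0. No paired analysis was possible because the groups share no replicate numbers in the labels. The RLE factors and the return of the excluded library changed no call of a member. Pnpla3, at 1.05 to 8.84 CPM, rests on the fewest reads.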

Other observations

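The authors' deposited female table gave values for the same genes, and its fold changes and p-values do not name the libraries fitted. In their table young females on Low Isoleucine had Srebf1 at -1.15 (adjusted p = 0.0467) and Fasn at -0.86 (adjusted p = 0.136), with 0.0931% of genes called. The authors' deposited table gave old females on Low Isoleucine Fasn at -0.86 (adjusted p = 0.0324), Acly at -0.48 (adjusted p = 0.0434), Srebf1 at -0.79 (adjusted p = 0.0528) and Thrsp at -2.16 (adjusted p = 0.0867), with 9.24% of genes called. For old against young Control females the authors' deposited table gave Pnpla3 at 1.43 (adjusted p = 0.000641), with 23.5% of genes called. In the library excluded from the 6-month Low Isoleucine group, Fasn was at 197 CPM and Thrsp at 22.3 CPM, inside the range of the libraries used. Srebf1, Scd1 and Elovl6 were inside it too, and Mlxipl lay above it. Below the lowest library used lay Acly (89.6 against 92.7 CPM), Pnpla3 (0.959 against 1.49 CPM), Acaca (111 against 124 CPM) and Me1 (82.6 against 89.3 CPM).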
